A study of Homo sapiens with 16 samples.

Results

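The effect of estradiol (E2) in the presence of ketamine was described by comparing HMC3 cells given E2 together with ketamine with HMC3 cells given ketamine alone. The members were chosen by their labels, as the 2 E2+ketamine columns and the 2 ketamine columns of the deposited count table, which gives 4 of the 16 RNA-seq libraries in the series. HMC3 is an immortalized human cell line that was established as a microglial line, and its libraries come from 1 line with no other donor. The study exposed the cells for 24 h to vehicle, to E2 at 0.1 nM, to ketamine at 400 nM, to a hydroxynorketamine (HNK) enantiomer at 400 nM, or to E2 with 1 of these drugs, in 8 groups of 2 libraries. E2+ketamine cells had E2 at 0.1 nM and ketamine at 400 nM, ketamine cells had ketamine at 400 nM and no E2, E2 cells had E2 alone, and vehicle cells had none of these agents. The E2 and vehicle libraries, 4 others of the 16, are set beside the comparison to show the effect of E2 without ketamine. All groups were kept in phenol red-free medium without serum during treatment.

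Estradiol acts in cells through nuclear receptors encoded by ESR1 and ESR2 and through a membrane receptor encoded by GPER1, and ketamine is a blocker of the NMDA receptor that is used as an anesthetic and as an antidepressant. Of the 9 genes of at least 5 CPM with the largest changes, 5 are metallothionein or zinc transporter genes. The lists of these genes held 9 (MTF1 included) and 20 of the 16004 genes tested. Metallothioneins are small cysteine-rich proteins that bind zinc and copper, and the zinc-sensing factor MTF1 drives their genes and the zinc exporter gene SLC30A1 through metal response elements, while it is known to repress the zinc importer gene SLC39A10 when zinc is plentiful.

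The E2+ketamine libraries held 62804472 and 62698279 counts, and the ketamine libraries held 81646165 and 79389018. The E2 libraries held 62267790 and 58865355 counts and the vehicle libraries 61599174 and 60115434. Levels are given in CPM after scaling each library by the TMM method, unless stated. A floor of 3 counts, for counting error only, is given without this scaling. It corresponds to 0.0478 and 0.0478 CPM in the E2+ketamine libraries and to 0.0367 and 0.0378 CPM in the ketamine libraries. The 10 genes with the most counts took 8.68% and 8.74% of the E2+ketamine libraries and 7.75% and 7.77% of the ketamine libraries. The defining microglial markers were near 0 in the 8 libraries of these 4 groups. AIF1, ITGAM and TMEM119 had at most 4 counts in a library, P2RY12 at most 7, PTPRC at most 3 and CX3CR1 and SPI1 at most 2, and the complement genes C1QA, C1QB and C1QC had 0. Of 16 microglial markers, 3 reached 1 CPM without the TMM scaling. On that unscaled basis the summed microglial markers were 74.4 and 70.6 CPM with E2+ketamine and 96.8 and 96.2 CPM with ketamine. Their part in the results was not tested. Of 14 fibroblast or pericyte markers, 11 reached 1 CPM on this unscaled basis, led by the fibronectin gene FN1 at 13916 CPM. Their unscaled sums were 20989 and 21031 CPM with E2+ketamine and 22373 and 22542 CPM with ketamine. Of the 11 of these markers that were tested, 5 were higher and 1, FN1, was lower. The TMM factors were 0.943 and 0.935 with E2+ketamine and 1.049 and 1.046 with ketamine. Division by them would put the fibroblast or pericyte sums higher with E2+ketamine and narrow the gap in the microglial sums.

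The first question was which transcripts changed when E2 was present along with ketamine. Among 16004 genes tested, 59 were higher with E2+ketamine and 113 lower when both limits were applied (adjusted p under 0.05, fold change past 1 on the log2 scale in either direction), which is 0.369% and 0.706% of the genes tested. DESeq2, used as an alternative on the compared libraries alone, gave 29 higher and 33 lower. At the adjusted p alone, 4375 genes (27.3%) were higher and 4828 (30.2%) lower, and the middle of all 16004 genes lay between log2 fold changes of −0.33 and 0.29 with a median of −0.05. The p-values measure only the spread between these libraries, since whether the 2 libraries of a group came from separate cultures is not stated. The common biological coefficient of variation of the fit, which leaves out the sampling noise of the counts, was 2.81%, so that small differences passed the test. An exact permutation test of 2 against 2 libraries cannot give a two-sided p below 0.333, so the tests rest on the fitted model.

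Most genes past the fold limit were scarce. Of the 59 higher genes, 45 had a mean under 1 CPM, 7 between 1 and 5 CPM, and 7 at least 5 CPM. Of the 113 lower genes, 98 had a mean under 1 CPM, 13 between 1 and 5 CPM, and 2 at least 5 CPM. The median mean level was 0.406 CPM among the higher genes and 0.251 CPM among the lower genes, against 14.5 CPM over all genes tested. The 9 genes at 5 CPM or more, all with both E2+ketamine libraries on the same side of both ketamine libraries, are MT1X, MT1E, SLC30A1, MT1F, BCYRN1, ACTG2 and DUSP2 on the higher side and SLC39A10 and SMIM14 on the lower side. Of these 9, 5 are a metallothionein or a zinc transporter. At the threshold, DUSP2 was just inside at a log2 fold change of 1.01 and TAGLN just outside at 0.99, and on the lower side SMIM14 was just inside at −1.08 and TGFBI just outside at −0.98.

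**Figure D1:**
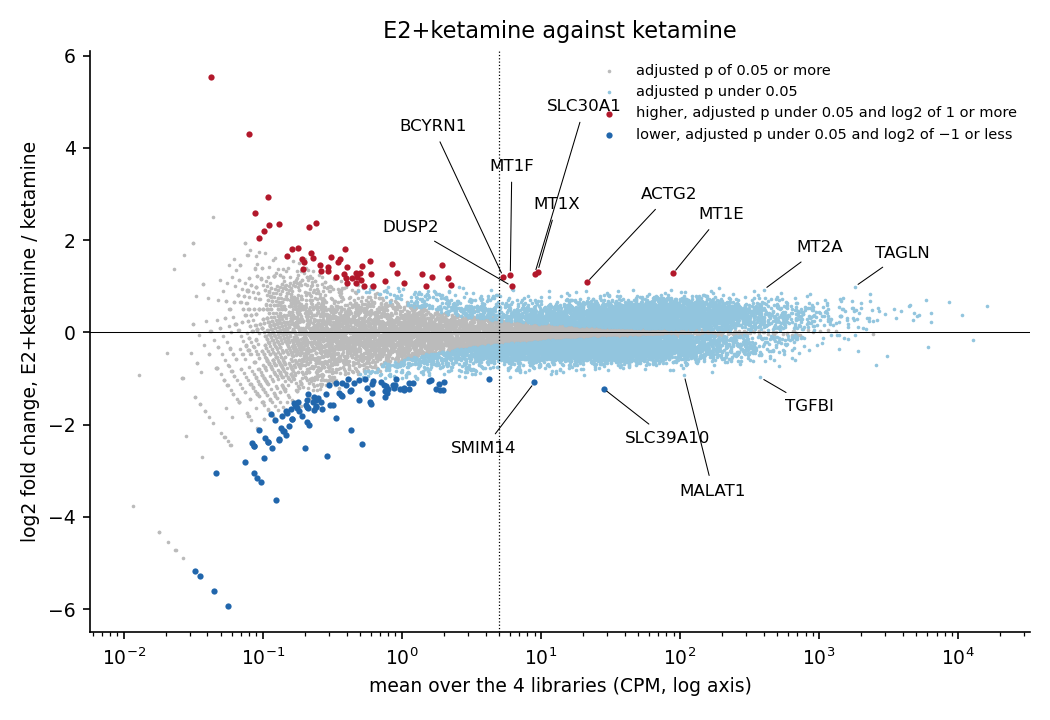
Log2 fold change of E2+ketamine against ketamine (vertical axis) by mean level over the 4 libraries in CPM (horizontal log axis), with 1 point per gene tested and a dotted line at 5 CPM. Red and blue points are the 59 higher and 113 lower genes past adjusted p and fold limit, most of them to the left of 5 CPM.

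MT2A, which encodes the main inducible metallothionein and lies at 16:56642496-56643409 on GRCh37, was at 505 and 540 CPM with E2+ketamine and at 273 and 278 CPM with ketamine. Both E2+ketamine libraries were above both ketamine libraries, with a log2 fold change of 0.92 ± 0.03 (SE, n = 2 libraries a group, edgeR adjusted p 1.5e-31). MT2A was at 307 and 293 CPM in vehicle and at 296 and 310 CPM with E2 alone, where the groups overlapped. In bulk RNA, more cells with a transcript and more transcript per cell cannot be told apart, here and in all results that follow.

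MT1E, a metallothionein gene at 16:56659387-56661024, was at 128 and 125 CPM with E2+ketamine, 50.6 and 53.6 CPM with ketamine, 59.4 and 57.6 CPM with E2 and 77.0 and 73.6 CPM in vehicle. The E2+ketamine libraries were the highest of the 8 and the ketamine libraries the lowest, and the log2 fold change between them was 1.28 ± 0.04 (adjusted p 5.2e-31). MT1X, at 16:56716382-56718108, was at 14.1 and 13.0 CPM with E2+ketamine and at 5.75 and 5.08 CPM with ketamine, with 6.36 and 8.11 CPM with E2 and 7.18 and 7.08 CPM in vehicle. MT1X had the largest log2 fold change at this level, 1.32 ± 0.10 (adjusted p 1.0e-16), and again the E2+ketamine libraries stood above the other 6. After a correction for GC content and length MT1X was at 1.13, below SLC30A1 at 1.57. MT1F, at 16:56691643-56694610, was at 8.60 and 8.36 CPM with E2+ketamine and at 3.96 and 3.18 CPM with ketamine, and its log2 fold change was 1.25 ± 0.11 (adjusted p 1.2e-13). These genes lie side by side on chromosome 16 and have near-identical stretches, so how reads divide between them is uncertain. Of 13 genes on the metallothionein list, which includes MTF1, 9 were tested, 5 were higher, 1 was lower and 3 did not pass, and the median log2 fold change was 0.44 (0.38 after a correction for GC content and length, and 0.37 to 0.94 over the alternatives) against −0.05 over all genes, of which 27.3% were higher and 30.2% lower. The 1 lower gene was MTF1 itself, at a log2 fold change of −0.29, and the other higher gene was MT1L at 0.42; both were named after their values were seen, and after the correction, which left 4 higher and 0 lower, neither was past the adjusted p.

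SLC30A1 and SLC39A10 moved in opposite directions. SLC30A1, the gene of the plasma membrane zinc exporter at 1:211744910-211752503, was at 12.7 and 12.9 CPM with E2+ketamine and at 5.45 and 5.10 CPM with ketamine. The log2 fold change was 1.28 ± 0.10 (adjusted p 2.8e-16), and the ketamine libraries were the lowest of the 8, with 9.0 and 7.44 CPM in E2 and 13.4 and 13.3 CPM in vehicle. With E2 added to ketamine, the SLC30A1 level thus lay next to that of vehicle. SLC39A10, the gene of a plasma membrane zinc importer at 2:196440701-196602426, was at 17.4 and 16.5 CPM with E2+ketamine, 37.9 and 41.0 CPM with ketamine, 25.2 and 25.7 CPM with E2 and 34.6 and 37.3 CPM in vehicle. Before the GC and length correction it was the largest fall at 5 CPM or more, with a log2 fold change of −1.22 ± 0.06 (adjusted p 3.2e-24). After the correction SLC39A10 was at −0.90 and TGFBI at −0.95. The E2+ketamine libraries were the lowest of the 8 for SLC39A10. The transporters did not move as a family: of 24 on the list 20 were tested, 5 were higher and 8 lower, and their median of −0.18 became 0.07 after the GC and length correction. SLC39A3 and SLC39A13, 2 further zinc importer genes, had log2 fold changes of 0.61 and 0.59 (0.32 and 0.27 after the correction).

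Promoter sequences of 4 of these genes are shown, for 3 genes that rose and for SLC39A10, which fell. The stretches are the 250 bases upstream of the start of the RefSeq gene on GRCh38.p14, 5′ to 3′ on the gene's strand, for MT2A (chr16:56608334-56608583, + strand), MT1X (chr16:56682220-56682469, + strand), SLC30A1 (chr1:211579162-211579411, − strand) and SLC39A10 (chr2:195656708-195656957, + strand). Capitals mark the core of the metal response element, TGCACNC or TGCGCNC, on either strand. The promoters of MT1E and MT1F were not in the RefSeq table used.
MT2A: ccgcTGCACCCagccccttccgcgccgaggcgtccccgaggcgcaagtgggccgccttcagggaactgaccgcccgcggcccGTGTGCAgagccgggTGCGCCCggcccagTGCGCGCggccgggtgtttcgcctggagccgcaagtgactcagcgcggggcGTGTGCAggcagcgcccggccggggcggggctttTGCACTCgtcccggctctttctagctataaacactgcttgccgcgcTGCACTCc
MT1X: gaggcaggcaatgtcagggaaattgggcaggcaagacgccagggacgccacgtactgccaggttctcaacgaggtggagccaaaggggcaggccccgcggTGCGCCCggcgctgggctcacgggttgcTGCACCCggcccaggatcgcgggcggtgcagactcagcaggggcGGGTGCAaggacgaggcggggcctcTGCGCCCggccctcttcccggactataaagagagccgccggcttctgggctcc
SLC30A1: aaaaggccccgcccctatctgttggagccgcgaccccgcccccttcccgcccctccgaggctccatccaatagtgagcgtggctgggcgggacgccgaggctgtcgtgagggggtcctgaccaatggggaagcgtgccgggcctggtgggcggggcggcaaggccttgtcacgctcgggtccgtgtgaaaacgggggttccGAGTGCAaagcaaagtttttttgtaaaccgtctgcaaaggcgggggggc
SLC39A10: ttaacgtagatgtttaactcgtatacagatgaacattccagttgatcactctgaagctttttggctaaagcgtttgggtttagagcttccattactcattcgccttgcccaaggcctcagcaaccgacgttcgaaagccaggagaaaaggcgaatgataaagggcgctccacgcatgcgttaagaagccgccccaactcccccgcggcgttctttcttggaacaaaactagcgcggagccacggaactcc
The MT2A stretch holds 7 matches, MT1X 4, SLC30A1 1 and SLC39A10 0. The element is short and common: of 12003 tested genes with a promoter in the table, 5424 (45.19%) held at least 1 match in the 300 bases from 250 before to 50 after the start. It was held by 48.1% of the 3520 promoters of higher genes and 46.93% of the 3861 promoters of lower genes at the adjusted p alone. With the fold limit added it was held by 12 of 35 promoters of higher genes (34.29%) and 21 of 73 of lower genes (28.77%), both below the share over all genes. The STAT site TTCNNNGAA was held by 8.44% of all promoters, by 7.33% of those of higher genes and by 9.376% of those of lower genes, and it matched 1 time each in the MT2A and SLC39A10 stretches. The full estrogen response element, GGTCA and TGACC with 3 bases between, was held by 3 of the 12003 promoters and by none of the 4 shown. After the GC and length correction the metal response element was held by 46.6% of promoters of higher genes and 48.37% of those of lower genes, and the STAT site by 8.534% and 8.356%, so the order of the groups changed with the correction for both motifs. A match describes letters in the window and is no evidence that a factor binds there.

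The zinc genes were followed through all 8 groups of the study. MT2A was highest with E2+ketamine, followed by (2R,6R)-HNK at 479 and 482 CPM and E2+(2R,6R)-HNK at 344 and 353 CPM, and it was lowest with E2+(2S,6S)-HNK at 165 and 161 CPM. Neighbouring groups in this order did not overlap, except E2 and vehicle. MT1E was also highest with E2+ketamine, but for MT1X and MT1F the E2+ketamine libraries overlapped those of (2R,6R)-HNK, and SLC30A1 was highest in vehicle, with E2+ketamine next and overlapping (2R,6R)-HNK. E2 added to (2R,6R)-HNK moved these genes the other way: the log2 fold change was −0.46 for MT2A, −1.23 for MT1E, −0.62 for MT1X, −0.74 for MT1F and −0.91 for SLC30A1. Added to (2S,6S)-HNK, E2 gave −0.30 for MT2A, −0.23 for MT1E, −0.33 for MT1X, 0.02 for MT1F and −0.12 for SLC30A1, of which the last 2 did not pass. The importer SLC39A10 mirrored them, at 0.27 with E2 added to (2R,6R)-HNK and 0.36 with E2 added to (2S,6S)-HNK.

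The difference between the E2 effect with ketamine and that with each metabolite was tested in the same fit. For MT1E it was 2.51 on the log2 scale against (2R,6R)-HNK (adjusted p 1.5e-36) and 1.51 against (2S,6S)-HNK (adjusted p 1.4e-25). For SLC30A1 it was 2.18 (adjusted p 2.6e-19) and 1.4 (adjusted p 6.3e-10), and for SLC39A10 −1.48 (adjusted p 1.6e-21) and −1.58 (adjusted p 8.1e-24). MT2A differed by 1.39 (adjusted p 5.7e-33) and 1.23 (adjusted p 2.2e-30). The rise of MT2A, MT1E and SLC30A1 with E2 was thus seen with ketamine and with neither metabolite. Over all genes, 457 (2.86%) had a more positive E2 effect with ketamine than with (2R,6R)-HNK by at least 1 on the log2 scale and 654 (4.09%) a more negative one, and against (2S,6S)-HNK the counts were 460 (2.87%) and 493 (3.08%). These differences carry no GC correction. Count-weighted exon GC content was 51.4% and 51.4% with ketamine and 52.7% and 52.9% with E2+ketamine. It was 52.2% and 52.1% with (2R,6R)-HNK and 52.1% and 52.1% with E2 added. With (2S,6S)-HNK it was 51.9% and 52.1%, and 51.1% and 50.9% with E2 added. Its part was not tested. Over the 16 libraries and the 10373 other genes with a mean of at least 5 CPM in these 16, the log2 levels nearest to MT2A by Pearson correlation were those of MT1X (0.985), SMAP2 (0.955) and MT1E (0.955). MT1F, whose mean over the 16 libraries lay under that level, had 0.971, and the correlation with SLC39A10 was −0.937. The levels nearest to SLC39A10 were those of MEAF6 (0.930), OPTN (0.912) and TUBD1 (0.910). The 16 points share groups of 2, and no test was made of these correlations.

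**Figure D2:**
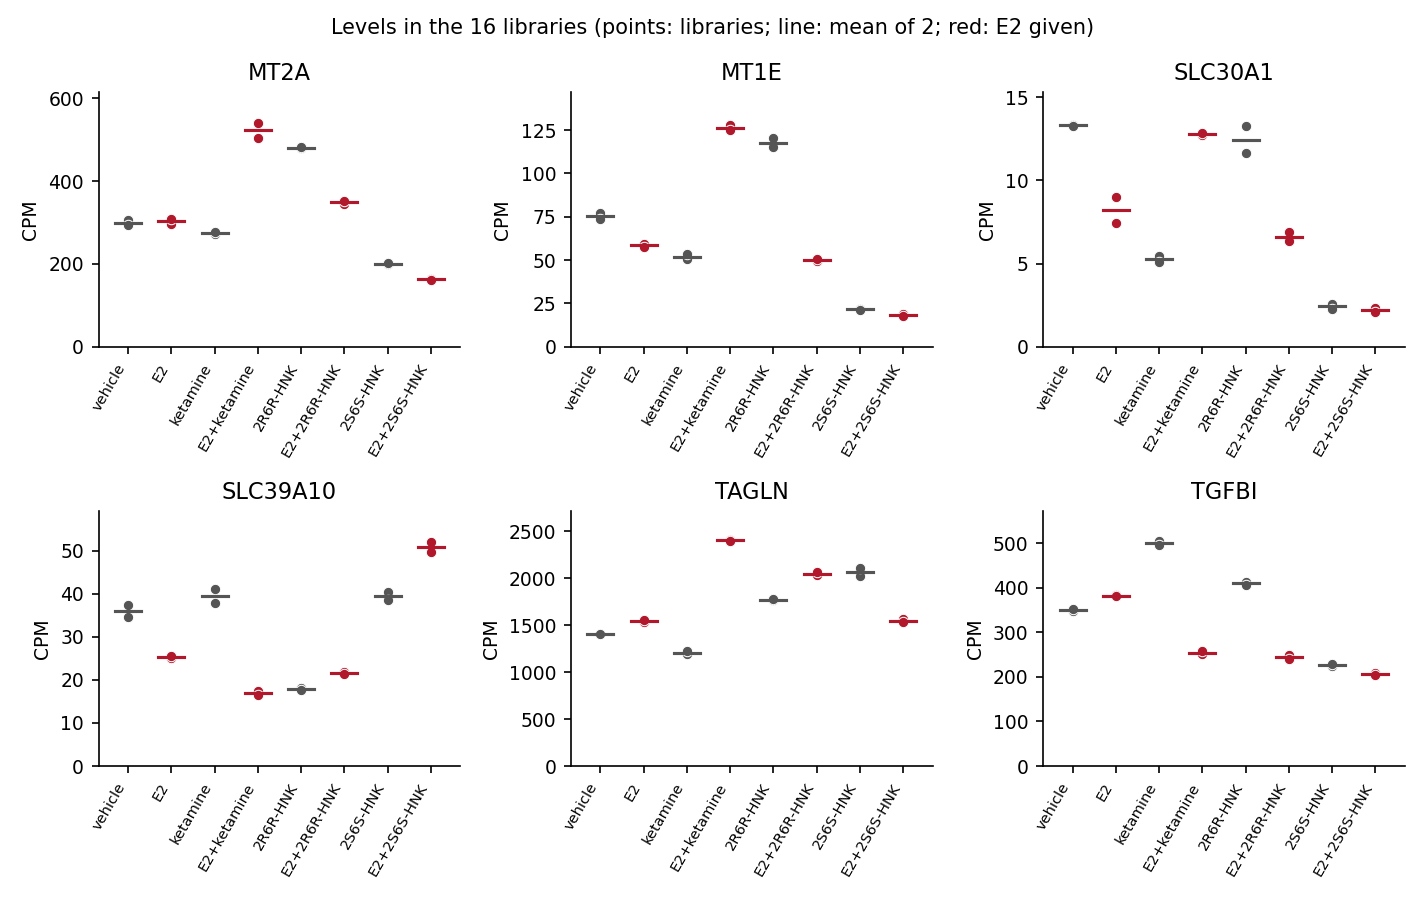
Levels in CPM (vertical axis) of MT2A, MT1E, SLC30A1, SLC39A10, TAGLN and TGFBI in the 8 groups (horizontal axis), with points for the 2 libraries, a line for their mean and red for groups given E2. MT2A is highest with E2+ketamine at 505 and 540 CPM, and SLC39A10 is lowest there at 17.4 and 16.5 CPM.

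ACTG2, which encodes smooth muscle gamma-actin and lies at 2:74119441-74146992, was at 29.7 and 28.5 CPM with E2+ketamine, 13.7 and 13.7 CPM with ketamine, 19.9 and 18.4 CPM with E2 and 20.9 and 24.6 CPM in vehicle. The E2+ketamine libraries were the highest of the 8 and the ketamine libraries the lowest, with a log2 fold change of 1.08 ± 0.06 (adjusted p 1.8e-20). TAGLN, the transgelin gene, which encodes an actin-binding protein, was at 2404 and 2396 CPM with E2+ketamine and 1194 and 1222 CPM with ketamine. Its log2 fold change of 0.99 ± 0.02 lay just under the limit, and 2233 of its 6550 annotated exon bases overlap those of PCSK7, whose log2 fold change was 0.96; as the strand setting of the counting is not stated, reads of the pair cannot be told apart. MYL9, a myosin light chain gene, was at 2987 and 3033 CPM with E2+ketamine and 1665 and 1695 CPM with ketamine (log2 fold change 0.84 ± 0.02).

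TGFBI, which encodes a matrix protein induced by TGF-beta, went the other way. It was at 252 and 258 CPM with E2+ketamine, 505 and 497 CPM with ketamine, 383 and 381 CPM with E2 and 348 and 352 CPM in vehicle, and its log2 fold change was −0.98 ± 0.02 (adjusted p 2.0e-34). The ketamine libraries were the highest of the 8 and the E2+ketamine libraries the lowest, so TGFBI mirrored ACTG2 and TAGLN although all 3 are on the list of YAP and TGF-beta responsive contractile genes. Of 28 tested genes on that list 13 were higher and 12 lower, with a median of 0.04 (0.16 after the GC and length correction), beside 27.3% higher and 30.2% lower over all genes tested. E2 added to (2R,6R)-HNK moved ACTG2, TAGLN and TGFBI in the same directions as with ketamine, with log2 fold changes of 0.81, 0.21 and −0.74. Added to (2S,6S)-HNK, E2 gave −0.37, −0.42 and −0.13.

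The other large changes at 5 CPM or more fell in genes of separate functions. BCYRN1, a short noncoding RNA of brain cells that is derived from an Alu element, was at 7.18 and 7.78 CPM with E2+ketamine and 2.90 and 3.58 CPM with ketamine, with a log2 fold change of 1.21 ± 0.15 (adjusted p 6.7e-10). Alu elements are present in very many copies, so reads at BCYRN1 may belong elsewhere. DUSP2, a phosphatase gene that limits MAP kinase signaling, was at 8.14 and 8.34 CPM with E2+ketamine, 4.25 and 3.95 CPM with ketamine, 5.78 and 7.34 CPM with E2 and 4.05 and 3.61 CPM in vehicle. It rose with E2 in both settings, with a log2 fold change of 1.01 ± 0.12 (adjusted p 4.9e-10) with ketamine and 0.77 without (0.63 with ketamine after the GC and length correction), and the difference did not pass (adjusted p 0.341). SMIM14, which encodes a small membrane protein of the endoplasmic reticulum, was at 6.35 and 5.17 CPM with E2+ketamine and 12 and 12.4 CPM with ketamine, with a log2 fold change of −1.08 ± 0.10 (adjusted p 6.4e-13). MALAT1, an abundant nuclear noncoding RNA, was at 80.4 and 67.6 CPM with E2+ketamine and 138 and 142 CPM with ketamine (log2 fold change −0.92 ± 0.09), and it was at 160 and 128 CPM with E2 and 239 and 200 CPM in vehicle.

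The next question was whether E2 acted differently with ketamine than without it. For most genes that passed in both comparisons the direction was shared. Of 7623 genes past the adjusted p in both, 7151 (93.8%) moved the same way and 472 the opposite way, in comparisons that share no library. Both fold changes rose with GC content (Spearman correlation 0.593 with ketamine and 0.755 without), and its part in the shared direction was not tested. Across the 10374 genes with a mean of at least 5 CPM over the 8 libraries, the log2 fold changes had a Pearson correlation of 0.733 and a Spearman correlation of 0.755, and across all 16004 genes the values were 0.350 and 0.519; genes are not independent replicates. E2 without ketamine gave 187 higher genes (1.17%) and 103 lower genes (0.644%) past the fold limit, and 4780 higher (29.9%) and 5227 lower (32.7%) at the adjusted p alone.

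SLC30A1 and MT1E passed in both settings with opposite directions. The difference of the 2 E2 effects was 1.97 for SLC30A1, 1.65 for MT1E, 1.49 for MT1F and 1.30 for MT1X on the log2 scale, and 0.91 for MT2A. SLC39A10 fell in both settings, with a difference of −0.72. These effects are given without a correction for GC content. SLC30A1 and SLC39A10 have an exon GC content of 40.7% and 39.4%. The 1536 genes of 38.8% to 41.1% GC had a median log2 fold change of −0.52 with E2 alone and −0.31 with ketamine. MT1E has 58.7%, and the 1536 genes of 58.2% to 61.6% had medians of 0.37 and 0.33. The part of GC content in these effects was not tested. Of the 9 genes with the large changes above, 8 had a difference past the adjusted p and 6 of these also past 1 on the log2 scale. SMIM14 and SLC39A10 were past the adjusted p alone and DUSP2 did not pass. These genes were chosen for their change with ketamine, which is part of the difference, so the count describes them only. The test of the difference gave 69 genes (0.431%) with a more positive E2 effect under ketamine and 223 (1.39%) with a more negative one past the fold limit. At the adjusted p alone there were 3915 (24.5%) and 2094 (13.1%), so 65.2% of differences were positive; with upper-quartile normalization the counts were 2755 and 3119, or 46.9% positive, and the lean toward positive differences depends on that choice. Among genes of at least 5 CPM with opposite signs and a difference past the adjusted p, 226 were higher with E2 under ketamine and lower with E2 alone, and 195 the reverse.

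At 5 CPM or more, the 5 largest negative differences were in genes that E2 alone raised. COL9A3, which encodes a chain of collagen IX, was at 8.12 and 8.48 CPM with E2, 5.31 and 4.18 CPM in vehicle, 6.35 and 5.97 CPM with E2+ketamine and 8.92 and 9.47 CPM with ketamine. Either agent alone was thus above vehicle and the combination below either agent, and the difference was −1.38 (adjusted p 1.9e-10). FER1L4, a transcribed pseudogene, was at 16.4 and 16.7 CPM with E2, 9.15 and 10.3 CPM in vehicle, 17.2 and 19.2 CPM with E2+ketamine and 28.3 and 25.8 CPM with ketamine (difference −1.34, adjusted p 1.3e-16). MEGF6, which encodes a secreted protein with EGF-like repeats, was at 32.1 and 31.6 CPM with E2, 19.2 and 20.4 CPM in vehicle, 26.4 and 28.2 CPM with E2+ketamine and 42.4 and 43.3 CPM with ketamine (difference −1.34). In both genes the E2 libraries and the ketamine libraries stood above the vehicle libraries, and the E2+ketamine libraries stood below the ketamine libraries.

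PTGIS, the prostacyclin synthase gene, was at 8.39 and 7.46 CPM with E2 and 3.74 and 3.74 CPM in vehicle, and at 9.24 and 8.02 CPM with E2+ketamine and 10.9 and 9.89 CPM with ketamine. E2 alone raised PTGIS by a log2 fold change of 1.08, and with ketamine, where the level was already high, the log2 fold change was −0.27; the difference was −1.35 (adjusted p 1.7e-10), while the call of the fall with ketamine was lost under DESeq2. YPEL1 had a difference of −1.32 (adjusted p 1.3e-13), but 2480 of its 4681 exon bases overlap those of PPIL2, whose log2 fold change was 0.53, and the strand setting leaves reads of the pair unassigned. HMMR, a gene of the hyaluronan receptor that also serves the mitotic spindle, was at 26.8 and 28.1 CPM with E2 and 49.2 and 50.9 CPM in vehicle, but at 24.1 and 23.9 CPM with E2+ketamine and 21.7 and 20.7 CPM with ketamine. E2 lowered HMMR only without ketamine, where it stood highest, and the difference was 1.05 (adjusted p 6.7e-15).

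**Figure D3:**
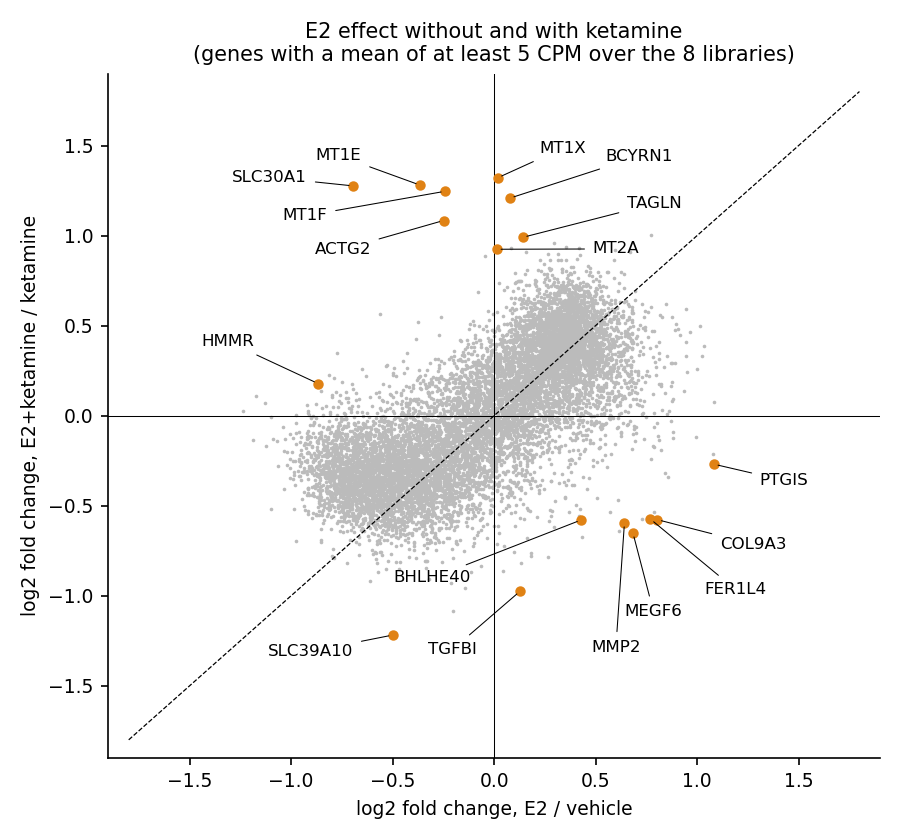
Log2 fold change of E2+ketamine against ketamine (vertical axis) and of E2 against vehicle (horizontal axis), with 1 point for each of 10374 genes of at least 5 CPM, a dashed line at equal effects and named genes in orange. SLC30A1, MT1E and MT1F lie in the upper left, at 1.28, 1.28 and 1.25 with ketamine and −0.69, −0.36 and −0.24 without.

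Base composition moved with the comparison, so list medians with ketamine are also given after a correction for it. The count-weighted exon GC content was 52.7% and 52.9% in the E2+ketamine libraries and 51.4% and 51.4% in the ketamine libraries, and it was 51.9% and 51.9% with E2 and 50.3% and 50.2% in vehicle. Across 15363 genes with an annotation, the log2 fold change had a Spearman correlation of 0.593 with GC content and −0.280 with length. For E2 against vehicle the correlation with GC content was 0.755, and for the difference of the E2 effects it was −0.293; values for E2 alone are given without the correction. The 10% of genes with the lowest GC content, with a median of 37.3%, had a median log2 fold change of −0.30, and the 10% with the highest, with a median of 63.9%, had 0.39. The part of GC content in the results was not tested, and a correction takes away library bias and also any response of the cells that happens to track GC content. After a loess correction for GC content and length, 3930 genes were higher and 2826 lower at the adjusted p alone, so that 58.2% of calls were higher, against 47.5% without it. Of the 9203 genes called without the correction, 5435 were also called with it, or 59.1% of the former and 80.4% of the latter list, and 5012 of the 5435 had the same direction. The zinc genes named by the rule kept their direction and stayed past the adjusted p, while MT1E, MT1F and SLC39A10, like DUSP2 and SMIM14, moved inside the fold limit of 1: corrected log2 fold changes were 0.74 for MT2A, 0.99 for MT1E, 1.13 for MT1X, 0.97 for MT1F, 1.57 for SLC30A1 and −0.90 for SLC39A10. For every list that follows, the counts with ketamine stand beside 27.3% higher and 30.2% lower over all genes tested, with a median of −0.05 (0.01 after correction), those with E2 alone beside 29.9% and 32.7%, and those of the difference beside 24.5% positive and 13.1% negative, a balance that upper-quartile normalization turned. No list was tested against other genes, and values of single members are given without the correction unless stated.

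**Figure D4:**
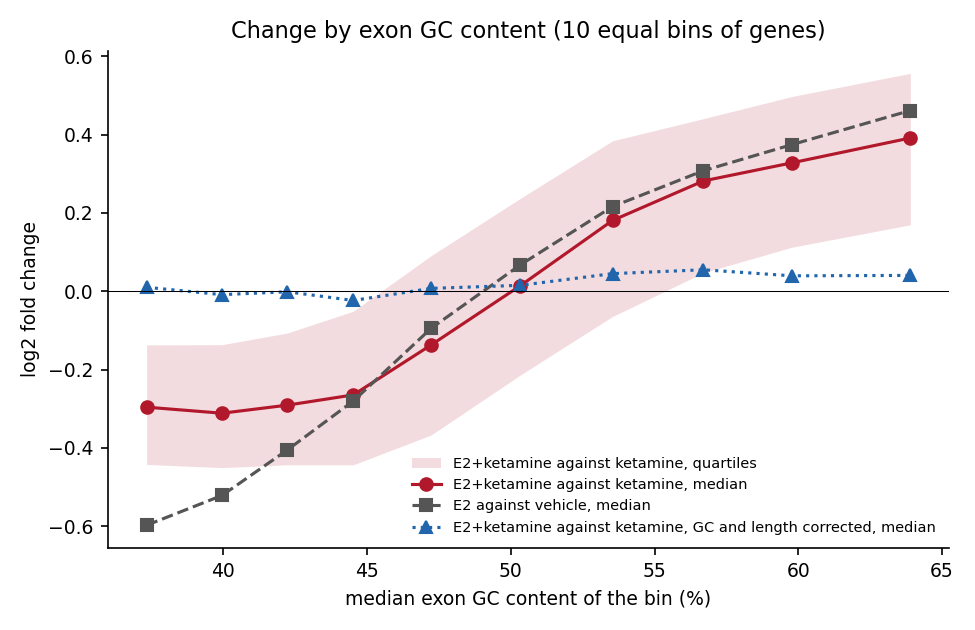
Median log2 fold change (vertical axis) in 10 equal bins of genes by exon GC content in percent (horizontal axis), for E2+ketamine against ketamine with quartiles shaded, for E2 against vehicle, and for the former after correction. The medians run from −0.30 in the lowest bin to 0.39 in the highest, and from 0.01 to 0.04 in those bins after correction.

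Tubulin transcripts had the highest list median before the correction. TUBA1C, an alpha-tubulin gene, was at 1778 and 1759 CPM with E2+ketamine and 1036 and 1117 CPM with ketamine, TUBB4B, a beta-tubulin gene, at 1343 and 1370 CPM against 828 and 842 CPM, and TUBB3, the beta-tubulin gene known from neurons, at 139 and 140 CPM against 89.0 and 90.4 CPM. The groups did not overlap for any of these, and their log2 fold changes were 0.72, 0.70 and 0.64, with 0.60 for TUBB2A. Tubulin genes have near-identical stretches, so single members are uncertain. Of 16 tested tubulins 14 were higher and 1 lower, with a median of 0.54 (0.38 after correction), the highest of the 37 lists before the correction and next to the metallothioneins after it. Over the alternatives the tubulin median was at most 0.58, while that of the metallothioneins reached 0.94. E2 alone raised 13 of the 16, with a median of 0.25, and the difference was positive past the adjusted p for 10 and negative for 0.

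Targets of the amino acid and oxidant responses were examined next. SLC3A2, the heavy chain of amino acid exchangers, was at 438 and 451 CPM with E2+ketamine, 237 and 240 CPM with ketamine, 278 and 284 CPM with E2 and 226 and 226 CPM in vehicle. Its log2 fold change was 0.90 ± 0.03 with ketamine and 0.31 without, and the difference of 0.58 passed (adjusted p 1.6e-18). PHGDH and SHMT2, enzymes of serine and glycine synthesis, had log2 fold changes of 0.74 and 0.70, and SLC6A9, a glycine transporter gene, 0.89. These are targets of ATF4, the factor of the amino acid response, of which 32 of 44 tested were higher and 7 lower, with a median of 0.30 (0.29 after correction). Among 33 tested targets of NRF2, the factor of the oxidant response, 18 were higher, 4 lower and 11 did not pass, with a median of 0.21 (0.20 after correction), and E2 alone gave 18 higher and 10 lower. NQO1, a quinone reductase gene, was at 142 and 139 CPM with E2+ketamine and 76.4 and 77.7 CPM with ketamine (log2 fold change 0.87), and OSGIN1, GSTP1 and FTL had 0.94, 0.74 and 0.69.

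Genes of energy supply and translation were examined as lists. Of 77 respiratory chain subunits 51 were higher and 14 lower with E2+ketamine, with a median of 0.25 that stayed at 0.25 after correction, while E2 alone gave 27 higher and 36 lower with a median of −0.03. The difference of the E2 effects was positive past the adjusted p for 64 of the 77 and negative for 0. NDUFS7, NDUFA11 and NDUFS8, subunits of complex I, had log2 fold changes of 0.78, 0.76 and 0.73, and CYC1, of complex III, 0.73. Of 78 tested cytosolic ribosomal protein genes 52 were higher and 18 lower, with a median of 0.21 (0.19 after correction), and E2 alone gave 29 higher and 38 lower. The difference was positive past the adjusted p for 71 and negative for 0, with a median of 0.24 that was 0.16 with upper-quartile normalization, against 0.04 and −0.04 over all genes. RPL35, RPS2 and RPL36 had log2 fold changes of 0.64, 0.61 and 0.58 (0.31, 0.30 and 0.19 after correction).

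Chaperone genes leaned lower with E2 alone and went both ways when ketamine was present. Of 38 tested heat shock proteins and co-chaperones 24 were lower and 7 higher with E2 alone, with a median of −0.52, whereas with ketamine 14 were lower and 12 higher and the median of −0.08 became 0.06 after correction. The difference was positive past the adjusted p for 28 and negative for 2. HSP90AA1, the inducible HSP90 gene, named after its values were seen, had a log2 fold change of −1.07 with E2 alone and −0.14 with ketamine. HSPB1, the HSP27 gene, rose in both settings, with 0.65 with ketamine (0.27 after the correction) and 0.44 without, and FKBP4, an HSP90 co-chaperone of steroid receptors, had 0.48 and 0.02. HSF1 and HSF2, factors of the heat shock response, had 0.48 and −0.45, and the call of HSF2 was lost after the correction.

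Collagen genes were examined next. Of 29 tested collagen genes 13 were lower and 5 higher with E2+ketamine, with a median of −0.12 (−0.23 after correction), but 15 were higher and 3 lower with E2 alone, with a median of 0.36. The difference was negative past the adjusted p for 18 and positive for 0, with a median of −0.35, and after the correction for 13 and 1, with a median of −0.19. COL11A1, a fibrillar collagen gene, was at 67.4 and 71.6 CPM with E2+ketamine and 110 and 108 CPM with ketamine (log2 fold change −0.65), and COL4A4, COL9A3 and COL5A2 had −0.96, −0.58 and −0.43. COL1A1, the collagen gene with the most CPM, named after its values were seen, had 0.27 (adjusted p 6.6e-14). Of 22 tested matrix metalloproteinase and inhibitor genes 11 were higher and 3 lower, with a median of 0.13 (0.04 after correction). MMP2, the gelatinase A gene, was at 5.30 and 4.55 CPM with E2+ketamine and 7.73 and 7.16 CPM with ketamine but at 3.36 and 3.41 CPM with E2 and 2.30 and 2.03 CPM in vehicle, so that E2 lowered it with ketamine and raised it without (difference −1.24, adjusted p 1.3e-06). TIMP3, an inhibitor of these enzymes, had a log2 fold change of 0.65, and MMP17 and ADAMTS14 had 0.60 and 0.59, of which MMP17 was no longer past the threshold after the correction. Hyaluronan genes had 2 higher and 3 lower of 10, and their median of 0.06 became −0.10 after correction; HYAL2, TMEM2 and UGDH had 0.56, −0.58 and −0.39. Prostanoid genes had 2 higher and 6 lower of 19, with a median of −0.20 (−0.18 after correction) that ran from −0.38 to 0.05 over the alternatives and was above 0 without E2+ketamine replicate 2 or without ketamine replicate 2, and PTGES2, PTGES3, AKR1B1 and ABCC4 had 0.80, −0.38, 0.44 and −0.38, of which ABCC4 was no longer past the threshold after the correction.

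**Figure D5:**
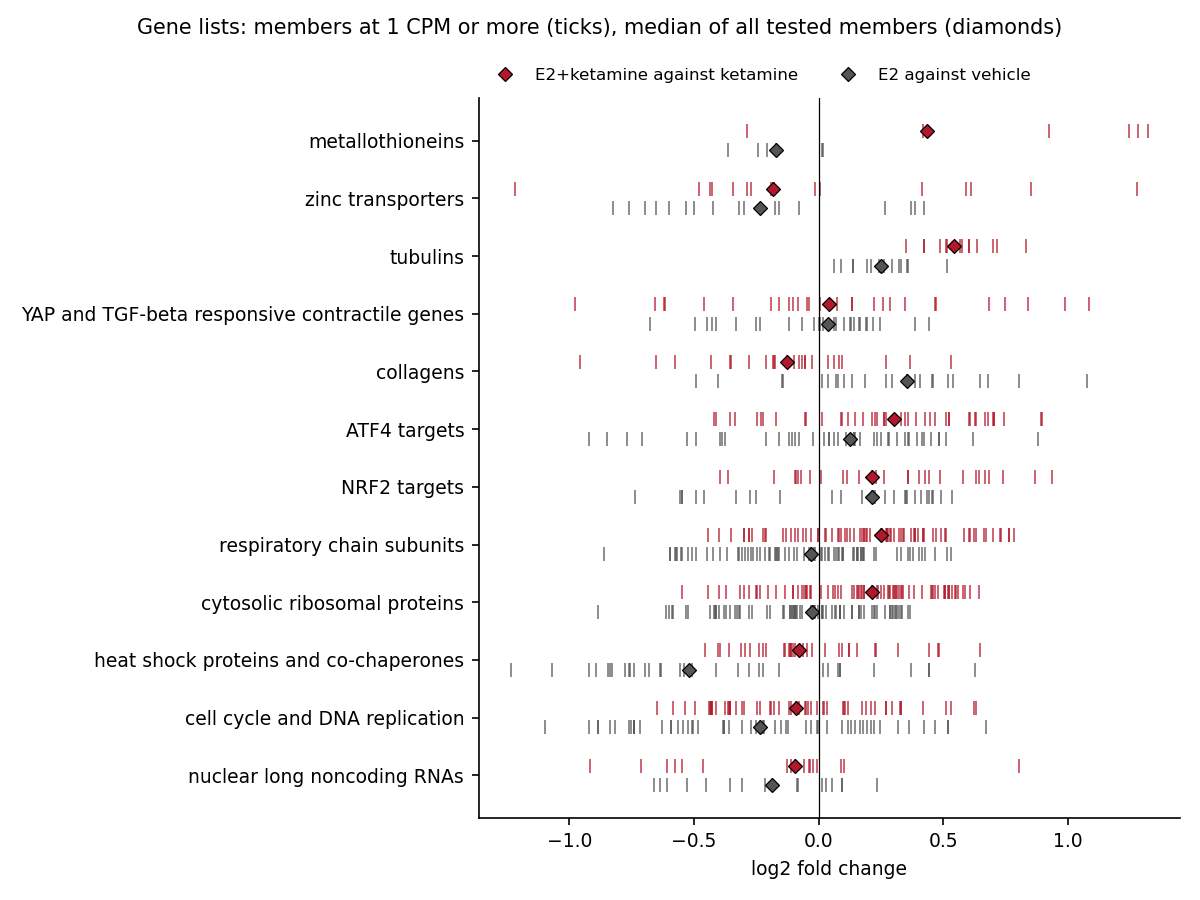
Log2 fold changes (horizontal axis) of the members of 12 gene lists (vertical axis) for E2+ketamine against ketamine (red) and E2 against vehicle (grey), with ticks for members of at least 1 CPM and diamonds for the median of all tested members. Medians with ketamine run from −0.18 for zinc transporters, which becomes 0.07 after the GC and length correction, to 0.54 for tubulins.

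The receptors and known targets of E2 gave few large changes. ESR1, the gene of estrogen receptor alpha, had 0 to 2 counts in a library and 4 counts in all 16 libraries, and was not tested. ESR2, the gene of estrogen receptor beta, was at 0.540 and 0.205 CPM with E2+ketamine and 0.327 and 0.482 CPM with ketamine, where the groups overlapped (adjusted p 0.854). GPER1, the gene of the membrane receptor, was at 1.81 and 1.71 CPM with E2+ketamine and 0.946 and 1.04 CPM with ketamine, with a log2 fold change of 0.82 (adjusted p 0.00275) that was 0.49 and no longer past the threshold after the correction (adjusted p 0.0985). Of 13 tested receptors and coregulators 5 were higher and 5 lower, with a median of −0.09 (−0.03 after correction) that ran from −0.12 to 0.17 over the alternatives and was above 0 with thinned libraries, without E2+ketamine replicate 2 or without ketamine replicate 2. NRIP1 and NCOA2, a corepressor and a coactivator of the receptors, had log2 fold changes of −0.54 and −0.50, and NCOA1 and NCOR1 had −0.38 and −0.37, calls that were lost after the correction. Of 26 tested estrogen-responsive genes 7 were higher and 6 lower and the median of 0.02 became −0.09 after correction. SLC9A3R1 and CTSD, known estrogen-induced genes of breast cells, had 0.46 and 0.40 with ketamine (0.11 and 0.07 after correction) and 0.33 and 0.44 without. Of 18 tested genes of estradiol metabolism 6 were higher and 3 lower, with a median of 0.16 (0.07 after correction). HSD17B10 and HSD17B4, which encode enzymes that oxidize estradiol, had 0.52 and −0.51 (0.43 and −0.16 after correction), and HSD17B14 had 0.40, a call lost after the correction.

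Interferon and STAT genes moved in both directions. STAT3, the factor the study followed, was at 159 and 155 CPM with E2+ketamine and 156 and 159 CPM with ketamine, and the groups overlapped (log2 fold change −0.00, adjusted p 0.994); after the GC and length correction it had 0.13 and passed the threshold. With E2 alone STAT3 had a log2 fold change of 0.18, and the difference was −0.18 (adjusted p 0.00043). Of 45 tested interferon-stimulated genes 15 were higher and 13 lower, with a median of 0.07 (0.17 after correction, −0.02 at the lowest over the alternatives). ISG15, a ubiquitin-like modifier gene, was at 71.9 and 75.6 CPM with E2+ketamine and 42.1 and 42.9 CPM with ketamine (log2 fold change 0.80), and OAS3, an RNA sensor gene, had 0.62. The RNA-activated kinase gene EIF2AK2 and PARP9 fell, at −0.56 and −0.54. Of 32 tested JAK, STAT, SOCS and IRF genes 9 were higher and 13 lower, with a median of −0.02 (−0.03 after correction). SOCS5 and SOCS6, inhibitors of cytokine signaling, had −0.60 and −0.60, and IRF1 and IRF3, interferon regulatory factors, 0.51 and 0.50. The genes measured by PCR in the study were chosen on these samples, so they are not independent evidence. Of the 13 on that list, 3 were higher and 2 lower, with a median of 0.07 (0.00 after correction), against 9 higher and 2 lower with a median of 0.57 with E2 alone. Among them IRF7 had 0.42, JAK1 −0.41 and JAK2 −0.49, of which IRF7 and JAK2 were no longer past the threshold after correction, and SOCS3 had 0.11, which became −0.22 after it.

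Immune lists had members in both directions. Of 20 MHC class I presentation genes 15 were higher and 4 lower, with a median of 0.30, and after correction 12 were higher and 2 lower, with a median of 0.12. TAP1, the peptide transporter gene, was at 42.8 and 46.3 CPM with E2+ketamine and 28.4 and 31.4 CPM with ketamine (log2 fold change 0.58), and PSMB9 and PSMB8, immunoproteasome subunit genes, and NLRC5, the activator of class I genes, had 0.52, 0.45 and 0.50. Of 24 tested cytokines and chemokines 6 were higher and 3 lower, with a median of 0.20 (0.04 after correction). LIF, an IL-6 family cytokine gene, had 0.50, CSF1 0.36, a call lost after the correction, and the growth factor genes TGFB1 and TGFB2 had 0.24 and −0.26, which became −0.10 and 0.02 after the correction. Of 15 tested complement genes 2 were higher and 5 lower, and the median of −0.14 became 0.00 after correction. CLU, the clusterin gene, was at 86.4 and 85.9 CPM with E2+ketamine and 52.6 and 53.8 CPM with ketamine, with 55.2 and 55.9 CPM with E2 and 54.8 and 52.4 CPM in vehicle. The E2+ketamine libraries stood above the other 6 (log2 fold change 0.70; difference 0.64, adjusted p 2.4e-13). CFD had 0.64, and the membrane regulators CD59 and CD46 had −0.49 and −0.27, of which CD46 became 0.08 after the correction.

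Genes of the glutamate and synaptic pathways linked to ketamine were also listed. Of 17 NMDA, AMPA and kainate receptor genes on 1 list 9 were tested, 1 was higher and 1 lower, and the median of 0.08 became −0.28 after correction; the 1 higher was GRINA, an NMDA receptor-associated protein gene, at 0.35, which became −0.03. E2 alone gave 5 higher and 1 lower of the 9, with a median of 0.50, and the difference was positive for 0 and negative for 4, with a median of −0.37 (0 and 1, with a median of −0.20, after correction). BDNF, the neurotrophin gene, was at 31.2 and 28.9 CPM with E2+ketamine and 34.5 and 32.5 CPM with ketamine, with a log2 fold change of −0.16 (adjusted p 0.0119) that became 0.06 after the correction. DLG4, the gene of PSD95, was at 26 and 27.1 CPM with E2+ketamine and 26.6 and 26.8 CPM with ketamine, with overlapping groups (adjusted p 0.952), and after the correction it had −0.17 and passed the threshold. SYN1, the synapsin I gene, was at 0.642 and 0.699 CPM against 0.619 and 0.506 CPM (adjusted p 0.575). Of 23 tested synaptic and neurotrophin genes 5 were higher and 7 lower, and the median of 0.06 became −0.04 after correction; HOMER3 had 0.54, and DLG1 and DLG3 had −0.52 and −0.39.

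EEF2, the elongation factor 2 gene, was at 5559 and 5735 CPM with E2+ketamine, 4408 and 4454 CPM with ketamine, 4573 and 4569 CPM with E2 and 3685 and 3615 CPM in vehicle. It rose by about the same amount with ketamine (log2 fold change 0.35 ± 0.02, 0.05 after the GC and length correction) and without (0.32), and the difference did not pass (adjusted p 0.471). Of 27 genes of mTOR and elongation factor 2 control 14 were higher and 11 lower, with a median of 0.11 (0.06 after correction). EIF4EBP1, a repressor of translation initiation, was at 257 and 264 CPM against 149 and 147 CPM with ketamine (log2 fold change 0.82), and RPS6KB2, an S6 kinase gene, and MLST8, a subunit of mTOR complexes, had 0.72 and 0.61. SIN3A, a corepressor scaffold gene, was at 66.6 and 62.3 CPM with E2+ketamine and 90.9 and 92.9 CPM with ketamine (log2 fold change −0.51 ± 0.04, −0.22 after the correction). Of 21 genes of its complex 3 were higher and 11 lower, with a median of −0.17 (−0.06 after correction). SUDS3, KDM5A and RBBP4, further members, had −0.76, −0.58 and −0.54, and BRMS1 had 0.78.

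Growth and metabolism lists had members in both directions. Of 57 cell cycle and DNA replication genes 17 were higher and 28 lower, with a median of −0.09 (−0.02 after correction). The mitotic regulators PLK1 and CDC20 rose, at 0.63 and 0.63, and the replication genes MCM6 and RRM1 fell, at −0.65 and −0.58. Of 27 p53 targets 12 were higher and 11 lower, with a median of 0.05 (0.01 after correction), and SESN2 and PLK3 had 0.61 and 0.56 and TP53INP1 and ZMAT3 −0.61 and −0.56. Of 29 cholesterol genes 16 were higher and 11 lower, with a median of 0.13 (0.06 after correction), although the synthesis genes HMGCS1 and CYP51A1 fell, at −0.78 and −0.58, and SREBF1, a factor that drives lipid synthesis genes, rose at 0.62. Of 21 tested fatty acid synthesis genes 4 were higher and 11 lower, with a median of −0.16 (−0.03 after correction), and the desaturase genes FADS3 and FADS2 had 0.60 and 0.45 and the elongase genes ELOVL1 and ELOVL5 0.53 and −0.52. Of 35 glycolysis and hypoxia genes 12 were higher and 12 lower, with a median of −0.02 (−0.05 after correction). P4HA1, a collagen prolyl hydroxylase gene, BNIP3L and NDRG1, which hypoxia induces, had −0.70, −0.55 and −0.53, and the glycolytic ALDOA had 0.50.

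Transcription factor lists followed. Of 30 tested immediate early genes 14 were higher and 4 lower, with a median of 0.25 that fell to 0.03 after correction, and the signal-responsive SRF, DUSP4 and FOSL1 had 0.58, 0.53 and 0.51. Of 22 tested circadian clock genes 4 were higher and 10 lower, with a median of −0.23 (−0.10 after correction), the lowest of the 37 lists before the correction but not after it. PER3, a clock repressor gene, was at 9.80 and 10.1 CPM with E2+ketamine and 16.5 and 18.5 CPM with ketamine (log2 fold change −0.82). BHLHE40, another clock repressor gene, was at 64.2 and 68.7 CPM with E2+ketamine, 99.1 and 99.3 CPM with ketamine, 85.8 and 80.4 CPM with E2 and 61.5 and 61.9 CPM in vehicle. E2 raised BHLHE40 without ketamine and lowered it with ketamine, with a difference of −1.01 (adjusted p 6.4e-21). NR1D1, a clock repressor gene whose call was lost after the correction, and CRY2 had 0.52 and 0.42. Of 5 tested C/EBP factors 3 were higher and 2 lower, with a median of 0.39 (0.14 after correction); CEBPB had 0.63 and CEBPD 0.39, which became −0.00 after correction, while CEBPG and CEBPZ had −0.22 and −0.13, which became 0.04 and 0.14.

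Nuclear and chromatin transcripts were the last lists. Of 17 nuclear long noncoding RNAs 2 were higher and 8 lower, with a median of −0.09. After correction 6 were higher and 7 lower, with a median of −0.09. NEAT1, the RNA scaffold of paraspeckles, was at 43.2 and 42.7 CPM with E2+ketamine, 68.2 and 72.6 CPM with ketamine, 67.7 and 65.6 CPM with E2 and 65.6 and 66.3 CPM in vehicle. The E2+ketamine libraries stood below the other 6 (log2 fold change −0.71 ± 0.04; difference −0.73, adjusted p 3.1e-14). LINC00657 and SNHG15 had −0.61 and 0.80. Of 51 tested replication-dependent histone genes 5 were higher and 1 lower, with a median of 0.22 (0.03 after correction), and HIST1H1C, HIST1H2BK and HIST1H2BD had 0.41, 0.41 and −0.25, of which HIST1H2BD was no longer past the threshold after the correction. Of 481 tested C2H2 zinc finger genes 72 were higher and 183 lower, and the median of −0.22 was −0.02 after correction; ZNF608, ZNF337 and ZNF611 had −0.87, −0.81 and −0.75 and ZNF511 had 0.78. Over the 37 lists the medians ran from −0.23 to 0.54, with 23 above 0 and 14 below.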

How the data were processed

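RNA was sequenced from 16 libraries of HMC3 cells, 2 for each of 8 treatments of 24 h, as paired reads of 100 bases from NuGEN Ovation libraries. The authors aligned reads to hg19 with TopHat2 2.0.14 and Bowtie2 2.2.6, per the labels (the article's methods give other versions), and the values the authors deposited are raw counts per gene made with featureCounts 1.4.6. The strand setting and whether the libraries of a group are separate cultures are not stated. The deposited counts were analysed with edgeR 4.0.16 (limma 3.58.1) and, as an alternative, DESeq2 1.42.0, under R 4.3.3. Libraries were grouped by treatment, and E2+ketamine was compared with ketamine in a fit of group means to all 16 libraries, with 8 residual degrees of freedom. Genes were filtered with filterByExpr, which left 16004 of 25370, libraries were scaled by TMM, and edgeR's quasi-likelihood test was applied with Benjamini-Hochberg correction. Genes were called at an adjusted p under 0.05, with and without a fold limit of 1 on the log2 scale in either direction. The same fit compared E2 with vehicle and tested the difference between the E2 effects with and without ketamine, and with ketamine and each HNK. Recovery of added changes was tested on simulated data.

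Libraries held 55300614 counts at the least, and the floor of 3 counts was at most 0.0542 CPM in a library, without the TMM scaling. Genes were named by a rule: up to 12 in each direction past both limits, at 5 CPM or more on average and with groups that did not overlap; the 5 largest differences of the E2 effects in each direction at that level; up to 4 members of each gene list past the adjusted p at that level; fixed names (ESR1, ESR2, GPER1, STAT3, SIN3A, EEF2, BDNF, DLG4, SYN1, MT2A, MT1E, MT1X and SLC30A1); and the 3 genes nearest to MT2A and to the largest fall by correlation. The members and the 37 gene lists were chosen with earlier results of these data known. The lists were described by counts of members past the adjusted p and by median log2 fold change, with no set test, and include 2 made by name pattern (histones and C2H2 zinc finger genes). Exon GC content and length were taken from an annotation on GRCh37 for 15363 tested genes, and promoters from RefSeq on GRCh38.p14 for 12003.

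As alternatives, DESeq2 replaced edgeR (with all libraries, and with the compared ones alone), edgeR was run with the compared libraries alone, the filter was dropped or raised to 10 counts per library throughout, and TMM was replaced by upper-quartile or median-of-ratios scaling. Others were a replicate block, a loess correction for GC content and length (span 0.5) with and without that block, counts halved, libraries thinned to the smallest total, and each compared library left out. Effects of ketamine or HNK without E2 were left out, as they belong to other comparisons.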

Additional observations from a re-analysis of the deposited data

Results flagged for a closer look

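The effect of E2 differed between cells with and without ketamine for 15 named genes by at least 1 on the log2 scale. This was a test of the difference itself, without the GC and length correction, and the values are the effect with ketamine minus the effect without. The named genes include some chosen for large changes or differences, so these counts describe them only. Over all 16004 genes tested, 69 (0.431%) had a positive difference past the fold limit and 223 (1.39%) a negative one. The difference was positive for 7 genes: SLC30A1 1.97 (1.28 with and −0.69 without, adjusted p 1.1e-16), MT1E 1.65 (1.28 and −0.36, 3.5e-28), MT1F 1.49 (1.25 and −0.24, 3.5e-10), ACTG2 1.33 (1.08 and −0.25, 5.5e-17), MT1X 1.30 (1.32 and 0.02, 1.8e-10), BCYRN1 1.13 (1.21 and 0.08, 3.5e-05) and HMMR 1.05 (0.18 and −0.87, 6.7e-15). Of these, 4 are metallothionein or zinc exporter genes, but MT1E, MT1X and SLC30A1 were fixed names, so that share follows in part from the naming. ACTG2 also rose with E2 added to (2R,6R)-HNK, with a log2 fold change of 0.81. After the GC and length correction no gene of the hyaluronan list had a positive difference past both limits, which leaves out HMMR.

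The difference was negative for 8 genes: BHLHE40 −1.01 (−0.58 with and 0.43 without, adjusted p 6.4e-21), TGFBI −1.10 (−0.98 and 0.13, 1.8e-29), MMP2 −1.24 (−0.59 and 0.64, 1.3e-06), YPEL1 −1.32 (−0.54 and 0.79, 1.3e-13), MEGF6 −1.34 (−0.65 and 0.68, 9.4e-20), FER1L4 −1.34 (−0.57 and 0.77, 1.3e-16), PTGIS −1.35 (−0.27 and 1.08, 1.7e-10) and COL9A3 −1.38 (−0.58 and 0.80, 1.9e-10). In all 8 the fitted E2 effect was above 0 without ketamine and below 0 with it. TGFBI also fell with E2 added to (2R,6R)-HNK and to (2S,6S)-HNK, at −0.74 and −0.13. After the GC and length correction no listed clock or contractile gene had a negative difference past both limits, which leaves out BHLHE40 and TGFBI.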

How the results depend on the processing

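The 9 genes with the largest changes kept their direction and stayed past the adjusted p under every alternative run, with log2 fold changes of 1.13 to 1.41 for MT1X, 0.99 to 1.32 for MT1E, 1.23 to 1.57 for SLC30A1, 0.97 to 1.41 for MT1F, 1.06 to 1.37 for BCYRN1, 1.05 to 1.12 for ACTG2, 0.63 to 1.06 for DUSP2, −1.28 to −0.90 for SLC39A10 and −1.24 to −0.78 for SMIM14. MT2A ranged from 0.74 to 0.97. Over all named genes, the alternatives other than left-out libraries gave 1808 values with no change of call, 42 no longer past the threshold, 2 newly past it and 20 of opposite sign, and left-out libraries gave 611 and 13 of the first 2 kinds; values past the threshold neither before nor after count as no change of call whatever their sign.

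For E2+ketamine against ketamine, DESeq2 on all 16 libraries gave 69 lower genes, DESeq2 on the compared libraries 29 higher and 33 lower, and at least 10 counts in every library 31 higher and 45 lower, where fewer genes were tested. For the difference of the E2 effects, DESeq2 gave 41 higher genes on all libraries and 39 higher and 135 lower on the compared libraries. The GC and length correction gave 30 higher genes at the fold limit and 2826 lower at the adjusted p alone, and with the replicate block 30 higher, 74 lower and 2820 lower; the cause was not tested. The block alone, which pairs libraries by number, gave 57 higher and 108 lower genes at the fold limit, and across genes the correlation between the differences of the numbered pairs was 0.00639.

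Among named genes past the threshold before or after the GC and length correction, the sign changed with it for STAT3 (0.13), BDNF (0.060), SOCS3 (−0.22), TGFB2 (0.019), TGFB1 (−0.10), CD46 (0.076), GRINA (−0.034), the CEBPD log2 fold change (−0.00139), CEBPG (0.036) and CEBPZ (0.14). The medians of heat shock proteins (0.063) and hyaluronan genes (−0.10) changed sign, as did those of zinc transporters (0.07), estrogen-responsive genes (−0.09), complement (0.00444), NMDA and AMPA receptor subunits (−0.28) and synaptic genes (−0.04). ESR2 and SYN1, past the threshold in neither case, went to 0.10 and −0.04. With the replicate block added, the 10 genes and the first 2 medians were 0.13, 0.060, −0.22, 0.019, −0.10, 0.076, −0.034, −0.00122, 0.036, 0.14, 0.063 and −0.10. With 1 library left out the median log2 fold change of hyaluronan genes ran from −0.038, without E2+ketamine replicate 1, to 0.069. The median difference of estrogen-responsive genes ran from −0.113 to 0.057, the latter without E2 replicate 2, and that of contractile genes was −0.00858 with upper-quartile normalization; the cause was not tested.

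With 1 compared library left out, where the lone library is assumed to vary like the other groups, E2+ketamine against ketamine gave 57 to 81 higher and 87 to 144 lower genes at the fold limit and 3998 to 4155 higher and 4221 to 4489 lower at the adjusted p alone. Of the 172 genes past the fold limit, 78 to 98 were also past it with a library left out, and 58 with DESeq2 on the compared libraries. The difference of the E2 effects gave 56 to 87, 193 to 252, 3488 to 3597 and 1771 to 1960. Even values made up 65.8% of counts from 1 to 9 and 49.9% of counts of 500 or more, so whether low counts stand for single pairs is uncertain; halved counts gave 48 higher and 89 lower genes at the fold limit.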
